A study of Mus musculus with 6 samples.

Results

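The cytosolic heat shock chaperones are the proteins that fold, hold and refold other proteins in the cytosol, together with the transcription factor that induces them. The 10 genes were chosen by symbol: the HSP70 genes Hspa1a, Hspa1b and Hspa8, the HSP90 genes Hsp90aa1 and Hsp90ab1, the HSP110 gene Hsph1, the J-domain genes Dnaja1 and Dnajb1, the small heat shock protein gene Hspb1 and the factor gene Hsf1. Of these 10 genes, 8 were found among the 23981 genes that the platform annotation names, on 14 of its 25335 probe sets. The annotation names no probe set for Hsp90ab1 or Hsf1, and both were not analysed here. Liver RNA was measured on Affymetrix whole-transcript arrays in 3 Balb/cBy mice, which the series calls KD, and 3 Balb/c mice, which it calls wild type, with 1 array per mouse. All 6 were males aged 20 weeks that had eaten a diet with 58% of its energy as fat for 12 weeks, starting at 8 weeks of age. No label says which gene KD refers to. No mice on another diet were included, so the values hold for livers under a high-fat diet. Balb/cBy is a substrain of Balb/c known to carry a spontaneous deletion in Acads, a gene of mitochondrial fatty acid oxidation.

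As background, HSP70 proteins bind stretches of unfolded protein in a cycle driven by ATP. J-domain proteins such as Dnajb1 bring them their clients and start the cycle, and HSP110 proteins such as Hsph1 exchange the nucleotide that ends it. HSP90 proteins complete the folding of kinases and steroid receptors. Hspa8 and Hsp90ab1 are made at all times, whereas Hspa1a and Hspa1b are switched on by heat shock factor 1 when unfolded protein builds up, and small heat shock proteins such as Hspb1 hold unfolded proteins without using ATP. In the liver, heat and oxidative stress are known to induce these genes.

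The promoters with a heat shock motif before the start are shown because several of these members, though not Dnaja1 or Hspb1, varied in a similar order from mouse to mouse. The RefSeq promoter table (GRCm38.p6) holds windows from 250 bases before to 50 bases after a start for 6 of the 10 members. The heat shock element, to which heat shock factors bind, is built from alternating GAA and TTC units. It was searched as GAANNTTC and TTCNNGAA, each of which is its own reverse complement, so that both strands are covered. The 250 bases before the start follow, 5′ to 3′ along the gene, with matches in capitals.
Hspa1b (chr17:34959239-34959488, minus strand): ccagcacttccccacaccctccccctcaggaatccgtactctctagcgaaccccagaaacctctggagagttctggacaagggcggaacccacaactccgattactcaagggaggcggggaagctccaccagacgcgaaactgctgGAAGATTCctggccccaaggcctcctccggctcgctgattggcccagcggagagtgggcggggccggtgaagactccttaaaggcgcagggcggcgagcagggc
Hspa1a (chr17:34972157-34972406, minus strand): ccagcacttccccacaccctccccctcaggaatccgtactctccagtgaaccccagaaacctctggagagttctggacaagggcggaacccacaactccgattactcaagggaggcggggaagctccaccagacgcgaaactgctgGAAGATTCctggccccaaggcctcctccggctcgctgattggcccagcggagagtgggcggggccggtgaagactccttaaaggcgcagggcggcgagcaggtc
Hsph1 (chr5:149636337-149636586, minus strand): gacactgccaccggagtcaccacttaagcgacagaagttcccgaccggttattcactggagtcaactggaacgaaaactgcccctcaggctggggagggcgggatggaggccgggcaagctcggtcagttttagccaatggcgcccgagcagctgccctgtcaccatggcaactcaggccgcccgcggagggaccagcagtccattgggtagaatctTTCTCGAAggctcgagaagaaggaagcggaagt
Dnaja1 (chr4:40722218-40722467, plus strand): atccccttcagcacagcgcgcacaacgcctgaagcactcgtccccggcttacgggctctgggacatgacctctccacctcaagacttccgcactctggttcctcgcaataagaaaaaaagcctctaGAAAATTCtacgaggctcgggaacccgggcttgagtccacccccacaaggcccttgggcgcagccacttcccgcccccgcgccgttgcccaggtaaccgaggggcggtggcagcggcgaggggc
Hspb1 (chr5:135887669-135887918, plus strand): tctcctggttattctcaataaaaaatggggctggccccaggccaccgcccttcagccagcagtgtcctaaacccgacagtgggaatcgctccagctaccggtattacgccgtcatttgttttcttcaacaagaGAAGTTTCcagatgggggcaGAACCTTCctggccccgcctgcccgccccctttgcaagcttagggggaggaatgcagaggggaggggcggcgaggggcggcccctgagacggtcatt
Both HSP70 promoters hold the match at the same place, with its first base at position -104 from the start, and are identical at 247 of 250 bases. Hspb1 holds 2 matches, Dnaja1 holds 1 and Hsph1 holds 1 before the start. Hsph1 also holds a longer run of 3 alternating units, which contains both short motifs, from base 37 after the start shown. Dnajb1, which varied in nearly the same order as Hspa1b, has 2 windows and no match in either. A link between the motif and the order of the mice was not tested. Matches to one or the other short motif were found in 5 of these 6 members, counted by gene over their 10 windows. The windows of Hspa1a and Hspa1b are near copies of each other. Counted by window, which is not the same unit, 15.1% of the 32851 windows in the table held a match. A run of 3 units, on either strand, lies in 0.603% of them.

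In these livers the 8 measured members did not differ between the substrains beyond limma's threshold. The spread between Balb/cBy mice was wide for Hspa1b, Dnajb1, Hsph1 and the probe set of Hspa1a alone. Between Balb/c mice their SD was 0.78, 0.45, 0.12 and 0.46 in the same order. The median SD within substrains over all tested probe sets was 0.14. None of the 8 passed an adjusted p of 0.05, where 0% of all 25335 tested probe sets did. At an unadjusted p under 0.05 there was 1 member, Hspb1, against 3.83% of all probe sets. That member was higher in Balb/cBy, as were 2.67% of all probe sets at the same p. Each gene is represented below by its probe set of highest mean. On that basis 7 members were higher and 1 was lower in Balb/cBy, with a median difference of 0.36 on the log2 scale, beside -0.0028 over all tested probe sets. Of all tested probe sets 49.1% lay above 0. Leaving out Balb/cBy replicate 2 moved the median of the members to 0.13, and leaving out Balb/cBy replicate 1 moved it to 0.55.

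The inducible HSP70 gene Hspa1b was the most variable member. Its log2 values (probe set 17344126) were 8.44, 12.14 and 11.64 in Balb/cBy mice, against 10.57, 10.13 and 9.05 in Balb/c mice. The Balb/cBy mice held both the lowest and the highest value, 13.0-fold apart, and the Balb/c mice lay between them within a 2.86-fold range. The means were 10.74 ± 2.01 in Balb/cBy and 9.92 ± 0.78 in Balb/c (SD, n = 3 each). The difference was 0.83 ± 0.88 (SE, 95% interval -1.20 to 2.85), and limma's adjusted p was 0.999. Without Balb/cBy replicate 1 the difference was 1.98 and without Balb/cBy replicate 2 it was 0.12, and neither passed (adjusted p = 0.333 and 0.999901 in limma). The pooled SD within substrains, 1.52, ranked 5 among the 25335 tested probe sets, whose median was 0.14.

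Hspa1a encodes nearly the same protein and starts 12918 bases from the start of Hspa1b on chromosome 17 (GRCm38.p6), so signals of these copies can mix. The probe set that the annotation gives to Hspa1a alone (17344132) read 7.40, 9.23 and 8.13 in Balb/cBy mice, against 7.94, 7.98 and 7.17 in Balb/c mice. Balb/cBy replicate 2 was again the highest array, and the groups overlapped. The difference was 0.56 ± 0.42 (SE, 95% interval -0.42 to 1.53). A second probe set (17336820) is shared by Hspa1a and Hspa1b and has the higher mean for Hspa1a, so it stands for that gene in the counts. It read 8.60, 8.77 and 8.28 in Balb/cBy mice, against 8.18, 7.86 and 8.42 in Balb/c mice, a difference of 0.40 ± 0.17 (SE, 95% interval -0.0042 to 0.79). This shared probe set ordered the arrays differently: Balb/cBy replicate 1 was second highest there and second lowest on the probe set of Hspa1a alone. Probe set numbers on this array largely follow chromosome and strand, since 92.07% of neighbouring numbers belong to genes of the same chromosome and strand. The 10 nearest named probe sets of 17336820 all belong to genes on the plus strand of chromosome 17, while Hspa1a and Hspa1b lie on the minus strand. No source used here gives the strand that its probes read.

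**Figure D1:**
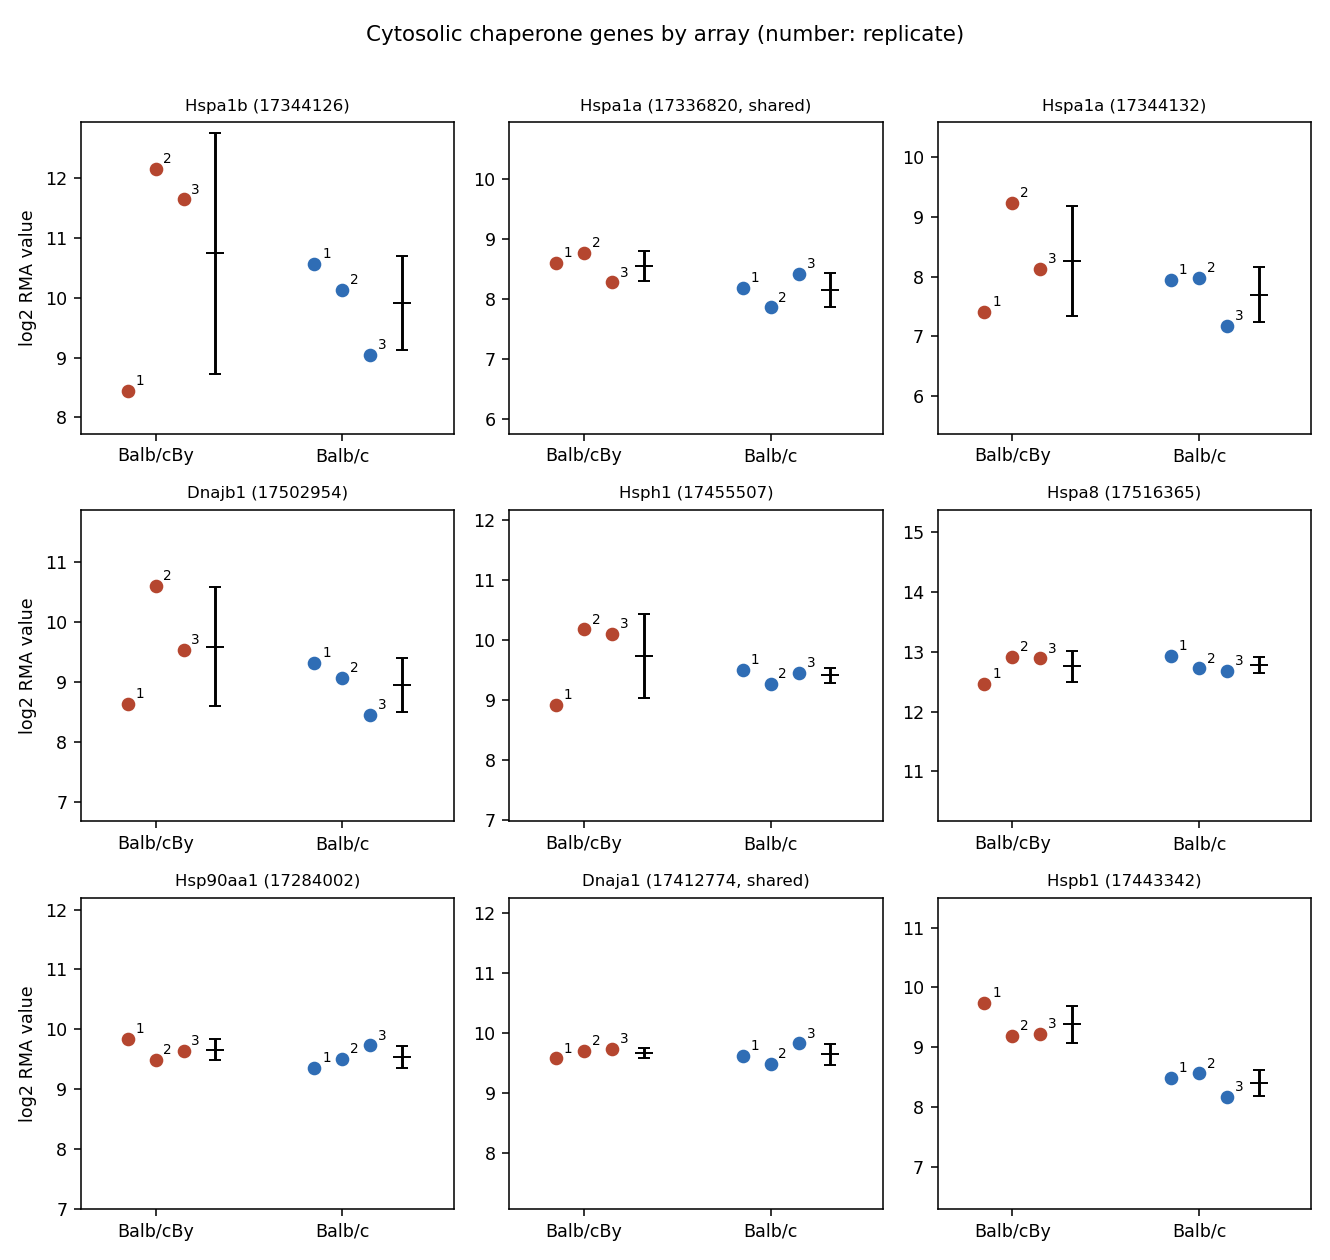
Log2 RMA values (vertical axes, all spanning the same range) of the 8 members by mouse, with Balb/cBy left and Balb/c right in each panel; points are arrays labelled by replicate, and black marks give the group mean ± SD. Hspa1a has 2 panels, its shared and its own probe set. Hspb1 is the member whose groups do not overlap, and in Hspa1b the Balb/cBy mice run from 8.44 to 12.14.

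Of the partners of HSP70 among the members, Dnajb1 and Hsph1 varied in nearly the same order as Hspa1b, and Dnaja1 did not. Dnajb1, the heat-induced J-domain protein that works with Hspa1a and Hspa1b, read 8.63, 10.60 and 9.53 in Balb/cBy mice, against 9.31, 9.07 and 8.45 in Balb/c mice. The groups overlapped, with a 3.91-fold range within Balb/cBy and a 1.82-fold range within Balb/c. Its difference was 0.64 ± 0.45 (SE, 95% interval -0.39 to 1.67), with an adjusted p of 0.999 in limma. Hsph1, the exchange factor, read 8.91, 10.18 and 10.10 in Balb/cBy mice, against 9.49, 9.27 and 9.45 in Balb/c mice. As in Hspa1b, Balb/cBy replicate 1 was the lowest of all arrays and the other Balb/cBy mice were the highest, whereas the lowest array of Dnajb1 was Balb/c replicate 3. The SD of Hsph1 was 0.71 in Balb/cBy and 0.12 in Balb/c. Its difference was 0.32 ± 0.30 (SE, 95% interval -0.37 to 1.02). By SD within substrains Dnajb1 ranked 99, Hspa1a by its own probe set 114 and Hsph1 357 of 25335, while Dnaja1 ranked 13422. Without Balb/cBy replicate 1 the differences grew to 1.12 for Dnajb1 and 0.73 for Hsph1, and without Balb/cBy replicate 2 they shrank to 0.14 and 0.10. None of these 4 values passed in limma, where the adjusted p-values were 0.570, 0.109, 0.999901 and 0.999901 in the same order.

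Balb/cBy replicate 2 was the highest array in 4 of the 8 members and Balb/cBy replicate 1 the lowest in 3. Over all tested probe sets Balb/cBy replicate 2 was the highest in 21.6% and Balb/cBy replicate 1 the lowest in 14.3%. Bag3, a co-chaperone of HSP70 that is itself heat-induced, read 9.18, 10.17 and 9.74 in Balb/cBy mice, against 9.27, 9.18 and 8.76 in Balb/c mice. It followed Hspa1b in its 4 highest arrays, and its difference of 0.62 ± 0.25 (SE) did not pass (adjusted p = 0.999 in limma). Immediate-early genes, which tissue handling is known to induce within minutes, varied between mice as well. Their mean over 12 genes was 8.84, 9.84 and 9.34 in Balb/cBy mice, against 9.17, 9.69 and 9.07 in Balb/c mice, so that the highest and the lowest array were those of Hspa1b. Atf3 read 8.13, 9.49 and 8.47 in Balb/cBy mice, against 8.14, 8.43 and 8.07 in Balb/c mice. The single genes followed no one order: Balb/cBy replicate 2 was the highest array in 4 of the 12 and Balb/c replicate 2 in 6, among them Jun and Egr1. The lowest array was Balb/cBy replicate 1 in 5 and Balb/c replicate 3 in 6. Kupffer cell markers averaged 9.51, 9.82 and 9.97 in Balb/cBy mice, against 9.89, 10.13 and 9.32 in Balb/c mice, with the lowest arrays being Balb/c replicate 3 and Balb/cBy replicate 1, which were also the lowest for Hspa1b, and the highest being Balb/c replicate 2, which was not. The part of these genes and cells in the chaperone values was not tested. In whole liver, fewer cells of a type and less RNA per cell cannot be told apart.

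**Figure D2:**
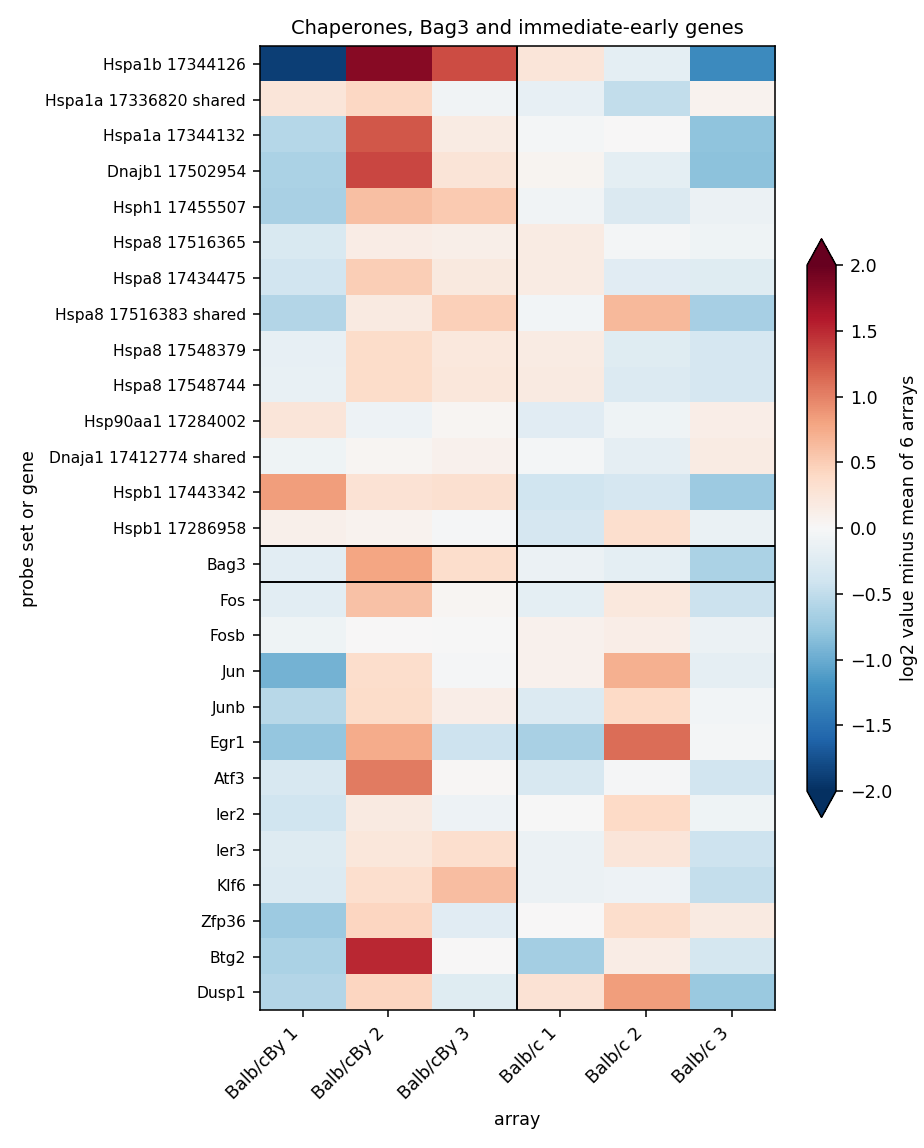
Log2 values minus the mean of the 6 arrays (colour) for the 14 chaperone probe sets (top block), Bag3 and 12 immediate-early genes (bottom block), with Balb/cBy arrays left of Balb/c arrays. Colours end at 2 on either side. Hspa1b, the own probe set of Hspa1a, Dnajb1, Hsph1 and Bag3 lie above their means in Balb/cBy replicates 2 and 3 and below them in Balb/cBy replicate 1. Of these, the own probe set of Hspa1a, Dnajb1 and Bag3 are lowest in Balb/c replicate 3. Hspb1 (17443342) is high in every Balb/cBy array.

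**Figure D3:**
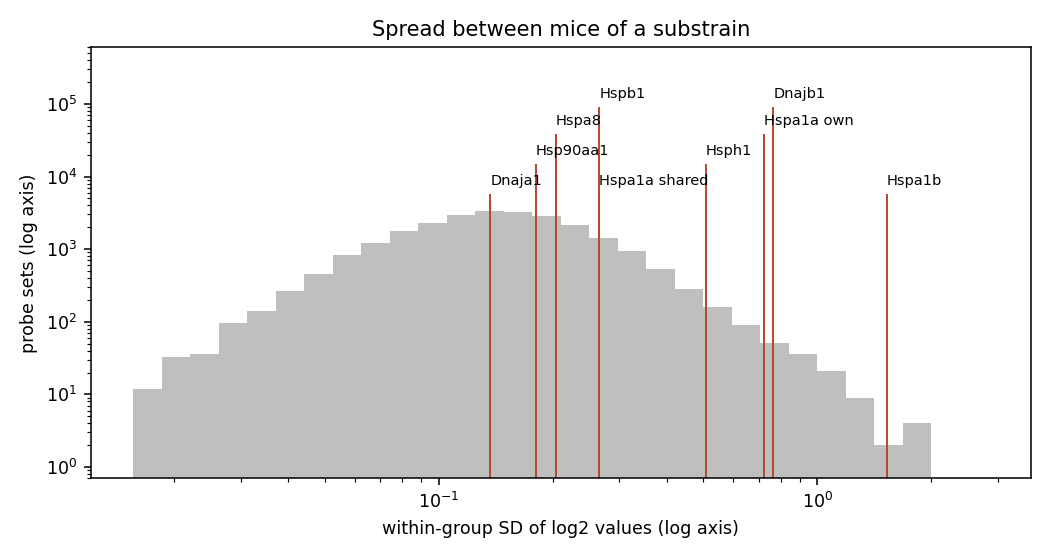
Number of tested probe sets (vertical, log axis) by their pooled SD within substrains (horizontal, log axis), with red lines at the members. Hspa1b, at 1.52, lies at the right end, and Dnaja1, at 0.14, lies near the median.

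Hspb1, the small heat shock protein also known as HSP25 in mice, was the member that parted the substrains. It read 9.74, 9.19 and 9.22 in Balb/cBy mice, against 8.49, 8.57 and 8.17 in Balb/c mice (probe set 17443342). Every Balb/cBy array lay above every Balb/c array, as in 4.48% of all tested probe sets, and 0 members had every Balb/cBy array below, as in 3.47% of all. The means were 9.38 ± 0.31 in Balb/cBy and 8.41 ± 0.21 in Balb/c (SD, n = 3 each). Balb/cBy exceeded Balb/c by 0.97 ± 0.17 (SE, 95% interval 0.58 to 1.37), which is 1.96-fold (1.49 to 2.59). Limma's unadjusted p was 0.000482 and its adjusted p 0.214, so it did not pass. Whichever array was left out, the difference stayed between 0.80 and 1.07. Over the alternatives the adjusted p ran from 0.0780 with array weights to 0.999 without moderation. Balb/cBy replicate 1, the lowest array for Hspa1b and Hsph1, was the highest for Hspb1. A second probe set (17286958), named for Hspb1 but numbered among genes of chromosome 13 rather than of chromosome 5, where RefSeq places Hspb1, read 8.19, 8.16 and 8.07 in Balb/cBy mice, against 7.76, 8.43 and 7.97 in Balb/c mice. Its groups overlapped, with a difference of 0.088 ± 0.16 (SE), and averaging both probe sets gave 0.53.

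**Figure D4:**
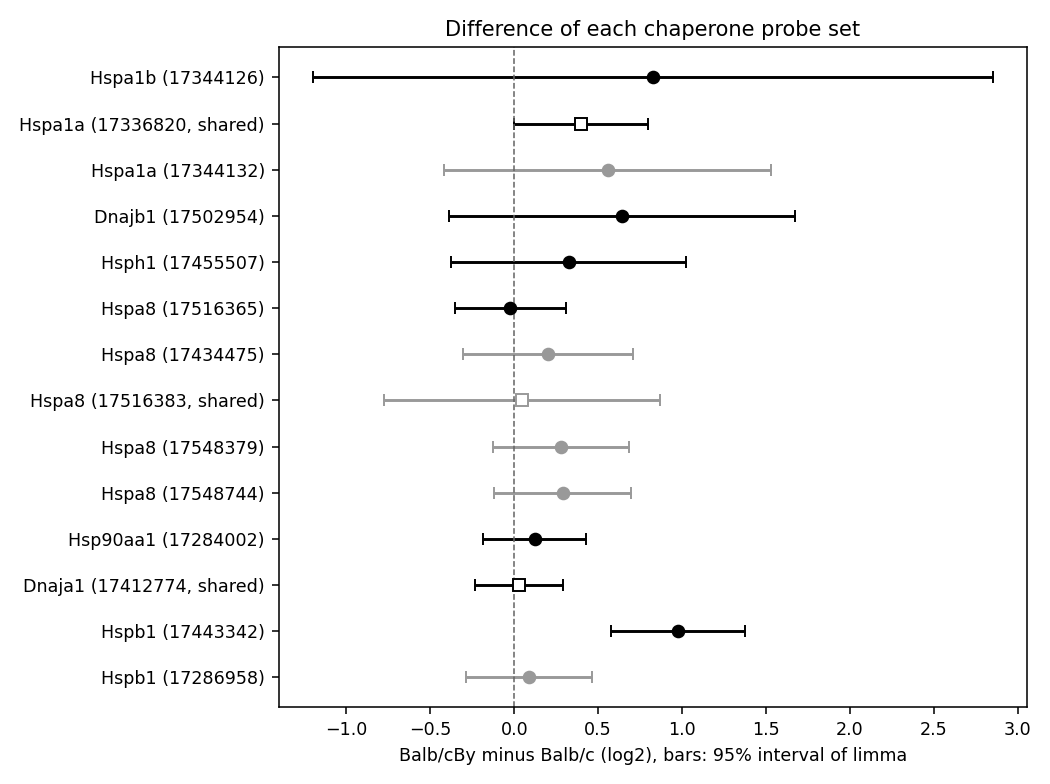
Log2 difference, Balb/cBy minus Balb/c (horizontal), with limma's 95% interval for each of the 14 probe sets; black marks stand for the gene, grey marks are its other probe sets, and open squares are probe sets shared with another symbol. The interval of Hspb1 (17443342), 0.58 to 1.37, leaves out 0, and that of Hspa1b runs from -1.20 to 2.85.

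Of the members made at all times, Hspa8 alone was measured, and its difference was small on its brightest probe set. Hspa8, the constitutive HSP70, read 12.46, 12.91 and 12.89 in Balb/cBy mice, against 12.93, 12.72 and 12.67 in Balb/c mice (probe set 17516365). The groups overlapped, and the difference of -0.023 ± 0.14 (SE, 95% interval -0.35 to 0.31) turned positive without Balb/cBy replicate 1 (0.12) or Balb/c replicate 1 (0.055). Another 4 probe sets name Hspa8, with differences of 0.047 to 0.29 and intervals that all include 0. Of these, 17516383 is shared with the small nucleolar RNA gene Snord14e, and 17548379 and 17548744 held nearly the same values, at 11.13, 11.65 and 11.51 in Balb/cBy for both. On 17434475, numbered among genes of chromosome 5 while Hspa8 lies on chromosome 9, the arrays ran 10.53, 11.40 and 11.11 in Balb/cBy mice, against 11.08, 10.69 and 10.66 in Balb/c mice, in the same order as Hspa1b.

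Hsp90aa1, the stress-inducible HSP90, read 9.84, 9.49 and 9.64 in Balb/cBy mice, against 9.36, 9.51 and 9.73 in Balb/c mice. Its difference was 0.12 ± 0.13 (SE, 95% interval -0.18 to 0.43), with overlapping groups. Unlike Hspa1b, it was highest in Balb/cBy replicate 1. Dnaja1, a J-domain partner of Hspa8, read 9.58, 9.70 and 9.74 in Balb/cBy mice, against 9.62, 9.48 and 9.83 in Balb/c mice. Its probe set is shared with the microRNA gene Mir207, and its difference of 0.029 ± 0.11 (SE, 95% interval -0.23 to 0.29) changed sign without Balb/cBy replicate 3 (-0.0044) or Balb/c replicate 2 (-0.052) and with repeated quantile normalization (-0.036). The interval of Dnaja1 leaves out differences beyond 0.29 in size. For Hspa8 no such bound holds for the gene, since the upper ends on its other probe sets run from 0.68 to 0.87.

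In the rest of the cytosolic chaperone network the list medians lay between 0.0017 and 0.11. Of any list below, 0 genes passed limma's adjusted p of 0.05. Of 16 measured HSP90 co-chaperones, 12 were higher and 4 lower in Balb/cBy (median 0.087). The smallest p-values were those of Stip1, the adaptor between HSP70 and HSP90, at 0.32 ± 0.14 (SE), Sugt1 at 0.35 ± 0.16 (SE) and Ahsa1, an activator of the HSP90 ATPase, at 0.19 ± 0.095 (SE). Among 25 other HSP70 relatives, J-domain proteins and exchange factors, 13 were higher and 12 lower (median 0.0017). Beside Bag3, the smallest p-values there were those of Dnajb2 at 0.28 ± 0.13 (SE) and Dnajb4 at -0.19 ± 0.11 (SE). The 8 other small heat shock proteins had a median of 0.063, 5 higher and 3 lower. Hspb8, the partner of Bag3, differed by 0.24 ± 0.18 (SE), Hspb6 by 0.16 ± 0.12 (SE) and Hspb2, on a probe set shared with another symbol, by -0.11 ± 0.092 (SE).

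Of the subunits of the cytosolic chaperonin TRiC and of prefoldin, which fold actin and tubulin, 13 of 13 were higher in Balb/cBy by small amounts (median 0.11). Their median was -0.016 without Balb/c replicate 2, the array with the lowest mean for this list. Cct3 differed by 0.29 ± 0.12 (SE), Pfdn5 by 0.25 ± 0.17 (SE) and Cct5 by 0.15 ± 0.13 (SE). The 6 genes of other heat shock factors and their binding protein split evenly, 3 higher and 3 lower (median 0.010). Hsf2 differed by -0.14 ± 0.19 (SE), Hsf2bp by 0.12 ± 0.10 (SE) and Hsbp1 by 0.16 ± 0.13 (SE). Of 17 measured further heat-induced genes, several of which also stand in the lists above, 11 were higher and 6 lower (median 0.11). The 12 immediate-early genes had a median of -0.051, with 5 higher and 7 lower, and of 0.17 without Balb/c replicate 2. Klf6 differed by 0.46 ± 0.22 (SE), Atf3 by 0.48 ± 0.31 (SE) and Zfp36 by -0.35 ± 0.26 (SE).

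Chaperones of the endoplasmic reticulum (ER), which do the corresponding work in the secretory pathway, were also mostly higher in Balb/cBy, with fewer overlapping groups. Of 12 measured genes 11 were higher and 1 lower in Balb/cBy, with a median of 0.41 and 0 past limma's adjusted threshold. Of the 8 cytosolic members 7 were higher, with a median of 0.36. In 8 of the 12 every Balb/cBy array lay above every Balb/c array, as in 1 of the 8 cytosolic members and 4.48% of all tested probe sets. The ER list was chosen with earlier results of these data known, so this count is a description. Hyou1, the HSP110 relative of the ER, read 11.08, 10.84 and 10.88 in Balb/cBy mice, against 10.03, 10.16 and 10.28 in Balb/c mice. Creld2 differed by 1.22 ± 0.15 (SE) and Manf by 0.65 ± 0.094 (SE), both with an adjusted p of 0.152. Balb/cBy replicate 1 was the highest array in 9 of the 12 ER genes, and in 20.8% of all tested probe sets. Without this array the median of the ER genes was 0.28. It was also the highest array for Hspb1 and Hsp90aa1, and the lowest for Hspa1b, Hsph1 and Hspa8. The difference between the cytosolic and the ER genes was not tested.

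**Figure D5:**
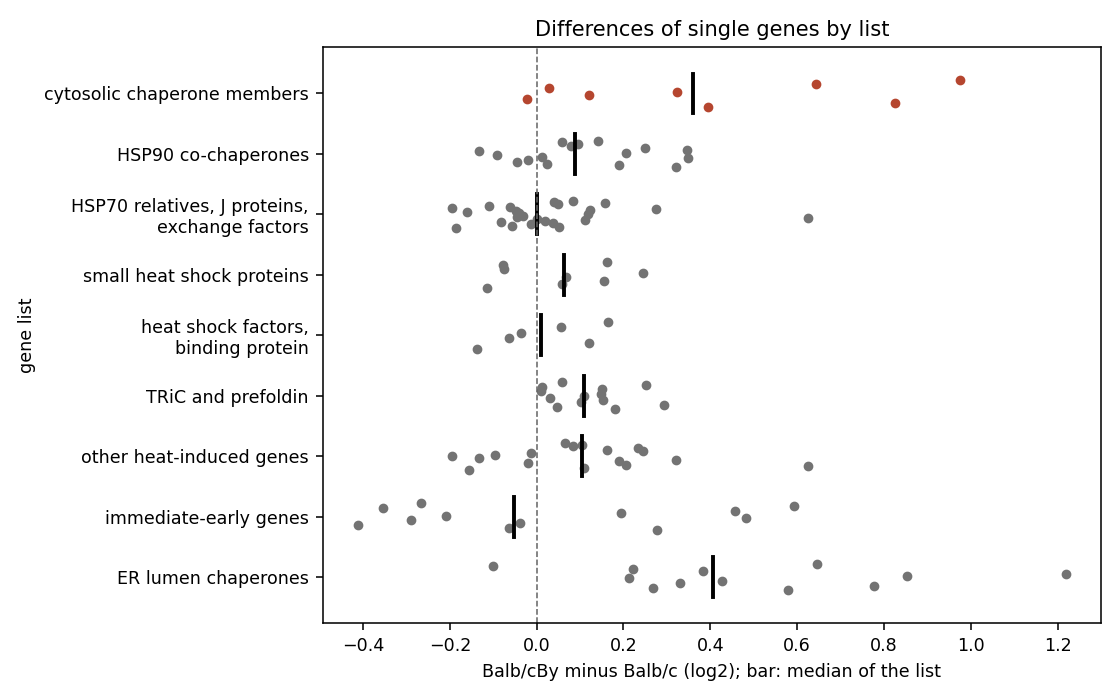
Log2 difference, Balb/cBy minus Balb/c (horizontal), of each measured gene, by list (rows); black bars are medians. The 8 members (red) spread from -0.023 to 0.97 with a median of 0.36. Most other lists of the cytosolic network have medians near 0, and the 12 ER genes have a median of 0.41.

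The 5 genes below had the profile over the 6 arrays most like that of Hspa1b, by the root mean square difference of values centred on each gene's mean, among 11840 brighter probe sets with 1 symbol. They were the small nucleolar RNA genes Snord70 (0.59) and Snora2b (0.64), the cytoplasmic actin gene Actg1 (0.60), the Y RNA gene Rny1 (0.67) and Lpin1 (0.71), a phosphatidate phosphatase of triglyceride synthesis. Lpin1 read 9.42, 11.45 and 10.96 in Balb/cBy mice, against 10.99, 9.27 and 9.54 in Balb/c mice. Each was highest in Balb/cBy replicate 2. Dnajb1 ranked 6 by the same measure and Hsph1 37, while Hspa8, Hspb1 and Hsp90aa1 ranked 1252, 10156 and 10926. Hspa1a and Dnaja1, which stand on shared probe sets, were not ranked. Values were centred but not scaled, so the ranks also reflect how widely a gene varied, not its order of arrays alone. The search took any such probe set of a gene, not its brightest alone. Actg1 was read on probe set 17288896, and the place of that number among the chromosomes was not examined. The likeness, over 6 arrays, is a description.

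Array medians were 7.97 to 8.02, but RMA quantile-normalizes the arrays, so these medians do not show that the arrays were alike. The mean of the 8 hepatocyte markers lay between 13.16 and 13.31 on every array. Single hepatocyte markers varied more, up to 2.25-fold over the arrays for Serpina1a. Alb read 14.16, 14.17 and 14.18 in Balb/cBy mice, against 14.20, 14.17 and 14.22 in Balb/c mice, so the tissue carried its defining marker. The smallest array weights in limma were 0.479 (Balb/cBy replicate 1) and 0.626 (Balb/c replicate 3). The mean of the 3 measured erythroid markers was lowest in Balb/c replicate 3, at 10.4, against 11.17 to 11.90 on the others. Hba-a1 (12.42) and Hbb-bs (7.48) were lowest on that array. Alas2 was not, at 11.30, and was lowest in Balb/c replicate 2 (10.93). The 95th percentile of the means of 1105 olfactory receptor genes, which the liver is not known to use, was 8.02. The probe sets that stand for the 8 members had 0 group means under it. The probe set of Hspa1a alone averaged 8.25 in Balb/cBy and 7.70 in Balb/c, so it lay under that level in Balb/c, and Hspa1a clears it in both substrains only on the probe set shared with Hspa1b. Of the other chaperone genes named, Dnajb4 and Hsf2bp lay under it in both substrains. So did genes not named here in the lists of HSP90 co-chaperones, HSP70 relatives, small heat shock proteins, heat shock factors and prefoldin. They count in the numbers and medians of those lists.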

How the data were processed

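Liver RNA of 6 mice was measured on 1 array each, and the titles gave each mouse's substrain. The deposited table holds log2 values made with RMA per the submitters' processing notes. RMA corrects background, quantile-normalizes arrays and summarizes probes, which pulls dim values together. No source used here names the software version or genome build. Of 41345 probe sets the platform annotation names 25335, of which 1814 carry several symbols. All 25335 were fitted with limma 3.58.1 in R 4.3.3 (group as the single term, empirical Bayes), with two-sided p-values adjusted by Benjamini-Hochberg across them and a threshold of 0.05. The unnamed probe sets may include array controls and entered only an alternative. The number of arrays limits the precision. Each p-value sets a difference against the spread between these mice, which empirical Bayes moderates toward that of all tested probe sets. The test was checked on simulated data. Promoters came from RefSeq (GRCm38.p6). The RefSeq gene table and promoter table supplied chromosomes and strands.

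The members and lists were chosen with earlier results of these data known. The text names all members, the 3 genes of each further list with the smallest p, the brightest marker of a cell type and the 5 genes most like the most variable member. Other markers are named where a list's mean or median did not hold for each of its genes. Of the markers only the hepatocyte, Kupffer and erythroid lists are given with values here and the others in the closing section. The olfactory receptor level, the neighbours of a probe set's number and the SD ranks were added after the data were seen. Alternatives covered array weights, the replicate block, moderation, scaling, the probe sets used and leaving out arrays.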

Additional observations from a re-analysis of the deposited data

How the results depend on the processing

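Under the 17 alternatives, 0 members passed in any. Hspb1, Hspa1b, Hspa1a, Dnajb1, Hsph1 and Hsp90aa1 kept their direction in all 17. Over all tested probe sets, limma called 53 with array weights, 14 without the 2 arrays of lowest weight (an alternative chosen after seeing the data) and 0 to 6 when 1 array was left out (6 without Balb/cBy replicate 1 and 2 without Balb/c replicate 3), against 0 with all arrays. The median of the members was 0.59 without the 2 arrays of lowest weight and 0.13 to 0.55 with 1 array left out. It was 0.56 with probe sets of 1 symbol alone, where Hspa1a stands on its own probe set. Hspa8 turned positive with array weights (0.0029), with averaged probe sets (0.16) and without the 2 arrays (0.073), and ran from -0.10 to 0.12 with 1 array left out. Dnaja1 turned negative with repeated quantile normalization (-0.036) and ran from -0.052 to 0.12; it has no probe set of its own, so it drops out when probe sets with 1 symbol are used alone. The median of small heat shock proteins ran from -0.013 (without Balb/cBy replicate 1) to 0.13, and that of other heat-induced genes from 0.048 to 0.20. The cause of these shifts was not tested.

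Equal replicate numbers did not pair the mice: the correlations of their deviations were -0.33, -0.18 and -0.25. With the replicate block 0 probe sets and 0 members were called, the median of the members was 0.36 and the adjusted p of Hspb1 was 0.226. No array correlated best with its own number.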

Other observations

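The probe sets with a larger SD within substrains than Hspa1b (1.52) were those of the serum amyloid genes, Saa1 and Saa2 together (1.93), Saa3 (1.86) and Saa2 (1.69), and of Rabggtb (1.76), a subunit of a prenyl transferase. Serum amyloid genes encode acute phase proteins of the liver.

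Marker lists of other cells were measured on the same arrays, with 0 genes past limma's adjusted p. Stellate cell markers had a median difference of 0.23 (5 of 5 higher), with Dcn at 0.48 ± 0.14 (SE) as the brightest. Sinusoidal endothelium markers had a median of 0.062 (4 of 5 higher), with Clec4g at 0.062 ± 0.11 (SE), and cholangiocyte markers of -0.063 (1 of 4 higher), with Sox9 at 0.16 ± 0.15 (SE). Neutrophil markers had a median of 0.29 (3 of 4 higher), with S100a9 at -0.0018 ± 0.22 (SE). The 3 higher ones, S100a8, Retnlg and Ly6g, averaged less than 8.02, the level taken from olfactory receptor genes, in either substrain, so the median rests on them. T and B cell markers had a median of -0.15 (0 of 4 higher), with Cd3e at -0.13 ± 0.099 (SE), and cholangiocyte and T and B cell markers other than Sox9 and Cd3e also lay under that level. The 4 skeletal muscle markers had a median of 0.14, with Tnnt3 at 0.077 ± 0.10 (SE). Kupffer cell markers had a median of -0.0071 (3 of 6 higher), with Vsig4 at 0.41 ± 0.16 (SE), and erythroid markers of 0.52 (3 of 3 measured), with Hba-a1, on a shared probe set, at 0.52 ± 0.28 (SE). Hepatocyte markers had a median of 0.0063 (4 of 8 higher).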
